A study of Homo sapiens with 2 samples.

Results

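The 10 core genes of the circadian clock were compared between a CREB1 knockout clone and CREB1 wild-type cells of HCT116, a human colorectal carcinoma cell line. The genes are CLOCK, ARNTL (also called BMAL1), NPAS2, PER1, PER2, PER3, CRY1, CRY2, NR1D1 and NR1D2, taken by name, and all 10 had a row among the 57820 gene identifiers of the deposited table. The knockout culture was 1 clone, expanded from a lone cell after nickase Cas9 with guides against CREB1, and it was set against HCT116 with wild-type CREB1, with 1 library of each. Both were kept in DMEM with serum, and ribosome-depleted total RNA was sequenced in strand-specific libraries. The hour of collection, any synchronisation of the cultures, and whether the wild-type culture was a clone too are stated in none of the sources used here.

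The clock is a transcriptional feedback loop. CLOCK or its paralog NPAS2 pairs with ARNTL, binds E-box elements and switches on the PER and CRY genes, whose proteins return to the nucleus and inhibit the pair. In a second loop the REV-ERB receptors NR1D1 and NR1D2 repress ARNTL and the ROR receptors activate it. CREB1 binds cAMP response elements, and in mice it relays light and cAMP signals to Per1 and Per2 in the brain's clock centre.

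The libraries held 31178309 expected counts in the knockout and 34511074 in the wild-type cells, with at least 1 count for 21014 and 21397 identifiers in knockout and wild-type cells. Counts per gene cannot reveal a small indel, so the level of CREB1 itself does not check the genotype label. It had 499 counts in the knockout and 614 in the wild-type library, a log2 ratio of -0.23 (95% counting interval -0.40 to -0.05). Its paralog CREM was higher in the knockout library, with 470 counts against 217 (log2 ratio 1.19, interval 0.95 to 1.43), and ATF1 had 198 against 246 (-0.24, interval -0.52 to 0.036). Of 9 colorectal epithelium markers 7 were expressed, and the 9 summed to 3652 CPM in the knockout and 4189 CPM in the wild-type library, while CDH17 (1 and 2 counts in knockout and wild-type cells) and VIL1 (9 and 12) were nearly absent. Most of that sum came from the keratins KRT8 (1582 and 1822 CPM in knockout and wild-type cells), KRT19 (948 and 1036) and KRT18 (859 and 1029). Among 5 fibroblast markers, which summed to 2.88 and 2.62 CPM in knockout and wild-type cells, COL1A1 was expressed at a low level, with 89 counts in the knockout and 83 in the wild-type library, and nearly all of the sum was its own. In knockout and wild-type cells 5 leukocyte markers summed to 0.688 and 0.297 CPM, and 3 endothelium markers to 0.688 and 0.743 CPM.

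Promoter sequence was set beside the members first, because CREB1 and the clock factors act through short DNA elements near gene starts. RefSeq (GRCh38.p14) lists 15 windows for the 10 genes, each from 250 bases before to 50 bases after an annotated start. In all, 5 elements were searched on both strands: the full cAMP response element TGACGTCA, its shorter form TGACG (contained in the full one), the E-box CACGTG, the D-box TTATGTAA and the receptor element AGGTCA. The windows of NPAS2, PER1 and PER2 are shown, 5′ to 3′ on the gene's strand, with matches in capitals, because NPAS2 was the member that differed and PER1 and PER2 are the members best known for a cAMP response. The second window of NR1D2 is added, chosen after its letters were seen, because it held the most matches.
NPAS2, chr2:100819889-100820188, plus strand: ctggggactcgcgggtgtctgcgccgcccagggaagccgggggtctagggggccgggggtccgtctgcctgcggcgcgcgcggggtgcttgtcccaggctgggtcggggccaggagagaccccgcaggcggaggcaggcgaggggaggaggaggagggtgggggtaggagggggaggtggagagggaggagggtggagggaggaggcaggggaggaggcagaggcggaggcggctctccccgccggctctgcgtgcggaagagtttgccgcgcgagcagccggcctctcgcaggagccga
PER1, chr17:8152355-8152654, minus strand: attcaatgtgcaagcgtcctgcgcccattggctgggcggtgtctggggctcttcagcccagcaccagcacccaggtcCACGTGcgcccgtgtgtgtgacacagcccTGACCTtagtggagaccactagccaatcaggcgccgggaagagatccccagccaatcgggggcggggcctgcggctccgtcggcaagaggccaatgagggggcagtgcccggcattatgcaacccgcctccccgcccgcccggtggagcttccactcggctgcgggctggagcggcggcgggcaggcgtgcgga
PER2, chr2:238288561-238288860, minus strand: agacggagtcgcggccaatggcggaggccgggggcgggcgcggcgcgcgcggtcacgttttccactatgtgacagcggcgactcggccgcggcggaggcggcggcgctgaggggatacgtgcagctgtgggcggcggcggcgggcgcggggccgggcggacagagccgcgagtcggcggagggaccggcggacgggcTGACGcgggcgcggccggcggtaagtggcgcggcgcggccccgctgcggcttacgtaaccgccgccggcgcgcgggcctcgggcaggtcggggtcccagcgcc
NR1D2, chr3:23945871-23946170, plus strand: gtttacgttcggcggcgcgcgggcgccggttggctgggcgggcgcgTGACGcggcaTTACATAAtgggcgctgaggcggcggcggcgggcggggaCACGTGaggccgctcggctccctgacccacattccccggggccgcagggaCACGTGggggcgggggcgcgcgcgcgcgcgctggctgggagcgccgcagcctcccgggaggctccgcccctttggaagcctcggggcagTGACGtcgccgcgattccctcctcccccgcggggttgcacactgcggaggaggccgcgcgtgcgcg

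None of the 5 elements occurs in the NPAS2 window. The PER1 window holds 1 E-box, which begins 173 bases before the start, and 1 AGGTCA element on the other strand. The PER2 window holds 1 TGACG, and the NR1D2 window holds 2 E-boxes, 1 D-box and 2 TGACG elements. Over all members, TGACGTCA was in 0 of the 15 windows, TGACG in 7, CACGTG in 2, TTATGTAA in 2 and AGGTCA in 4. Among all 35116 RefSeq windows of that length the shares were 1.85% for TGACGTCA, 24.6% for TGACG, 7.26% for CACGTG, 0.886% for TTATGTAA and 13.8% for AGGTCA. Windows of 1 gene can overlap, a match is only a match of letters, and elements farther from the start were not searched.

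All 10 members were expressed, that is, had a mean of at least 1 CPM (counts per 1000000 counts of the TMM-scaled library total) over both libraries. They had between 42 and 1044 counts, and all 10 had whole-number values in both libraries, as reads that belong to 1 gene leave them. With 1 library per genotype there is no spread between replicates and no p-value. Each log2 ratio, knockout over wild-type, has an exact (Clopper-Pearson) 95% interval that covers counting error alone, and a gene was called when it differed at least 2-fold with an interval clear of no difference. By that rule 1 member, NPAS2, was higher and 0 were lower, beside 2.92% of all 12886 expressed genes called in either direction, 1.28% higher and 1.64% lower.

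**Figure D1:**
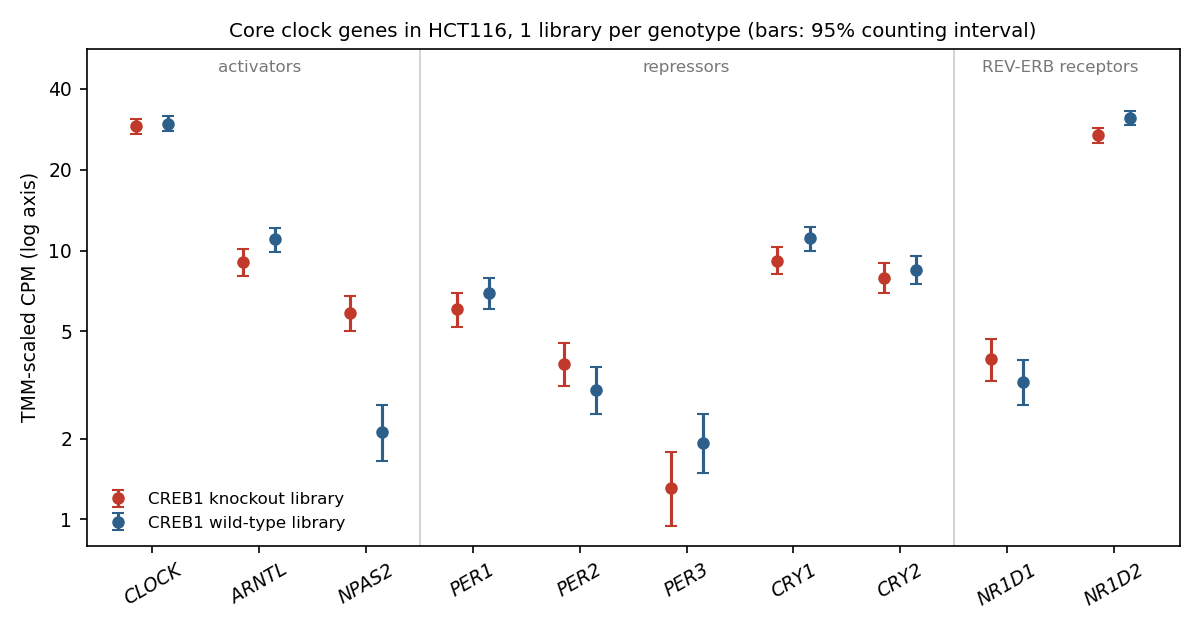
Level of each core clock gene in TMM-scaled CPM (log axis), with the CREB1 knockout library in red on the left and the wild-type library in blue on the right of each pair. Points are 1 library each and bars are 95% Poisson counting intervals; NPAS2 stands at 5.85 CPM in the knockout and 2.11 CPM in the wild-type library, with no overlap. The bars of NR1D2 lie just apart, and those of the 8 other genes overlap. The share of all expressed genes whose bars lie apart was not computed.

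Among the activators, NPAS2 was called higher, and CLOCK and ARNTL were not called. NPAS2 (ENSG00000170485.12, chromosome 2), the paralog of CLOCK that is prominent in the forebrain, had 187 counts in the knockout and 71 in the wild-type library, or 5.85 and 2.11 CPM in knockout and wild-type cells. It was 2.76-fold higher in the knockout library (log2 ratio 1.46, interval 1.07 to 1.89), so even the low end of the interval lies past 2-fold, and 1.02% of expressed genes had a ratio as large or larger in either direction. NPAS2 was a low gene, and 3.13% of the 2876 genes with a mean of 1 to 5 CPM were called higher. CLOCK (ENSG00000134852.10, chromosome 4), the usual partner of ARNTL, had 926 counts in the knockout and 997 in the wild-type library (log2 ratio -0.033, interval -0.16 to 0.097). CLOCK was thus level within counting error, and 90.9% of expressed genes had a larger or equal ratio in either direction. ARNTL (ENSG00000133794.13, chromosome 11), the shared partner of CLOCK and NPAS2, had 289 counts in the knockout and 370 in the wild-type library, 1.22-fold lower (log2 ratio -0.28, interval -0.51 to -0.057).

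The PER genes, whose proteins carry the inhibitory complex into the nucleus, went in different directions, and none was called. PER1 (ENSG00000179094.9, chromosome 17) had 193 counts in the knockout and 233 in the wild-type library, or 6.04 and 6.92 CPM in knockout and wild-type cells (log2 ratio -0.20, interval -0.48 to 0.083). PER2 (ENSG00000132326.7, chromosome 2) had 121 counts in the knockout and 102 in the wild-type library, or 3.78 and 3.03 CPM (0.32, interval -0.072 to 0.71). PER3 (ENSG00000049246.10, chromosome 1), the member of the family that mice can lose with the mildest effect on rhythm, was the scarcest clock transcript in the knockout library, with 42 counts against 65 in the wild-type library. Its log2 ratio was -0.55, and the interval, -1.15 to 0.025, reaches from past 2-fold lower to just above no difference. With TMM scaling all 3 intervals include no difference, so at this depth and with this scaling no change in any PER gene was detectable (with library totals the interval of PER2 lies just above no difference), and a change in PER3 of up to 2.22-fold lower lies inside its interval.

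CRY1 and CRY2 encode the cryptochromes, the strongest repressors of the CLOCK and ARNTL pair. CRY1 (ENSG00000008405.7, chromosome 12) had 293 counts in the knockout and 373 in the wild-type library, or 9.16 and 11.1 CPM (log2 ratio -0.27, interval -0.50 to -0.050). CRY2 (ENSG00000121671.7, chromosome 11) had 253 counts in the knockout and 285 in the wild-type library, or 7.91 and 8.47 CPM (-0.098, interval -0.35 to 0.15). CRY1 was thus 1.21-fold lower with an interval just clear of no difference, and CRY2 was level within counting error.

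The REV-ERB receptors differed in sign. NR1D1 (ENSG00000126368.5, chromosome 17) had 126 counts in the knockout and 109 in the wild-type library, or 3.94 and 3.24 CPM (log2 ratio 0.28, interval -0.099 to 0.67). NR1D2 (ENSG00000174738.8, chromosome 3) was far more abundant, with 857 counts in the knockout and 1044 in the wild-type library, and was 1.16-fold lower (-0.21, interval -0.34 to -0.080). The gene for the thyroid hormone receptor THRA overlaps NR1D1 on the opposite strand, and its 1219 counts in the knockout and 1102 in the wild-type library gave a ratio of the same sign (0.22, interval 0.10 to 0.34). NKIRAS1, which overlaps NR1D2 on the opposite strand, had 205 against 296 counts (-0.46, interval -0.72 to -0.19). The libraries were strand-specific per the labels, but no source used here says whether the counting used the strand, so reads of such overlapping pairs may not be fully separated. The same holds for CLOCK and TMEM165, which had 995 counts in the knockout and 1058 in the wild-type library (-0.015, interval -0.14 to 0.11). All genes of these pairs had whole-number values in both libraries, and how far their reads were separated was not tested.

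**Figure D2:**
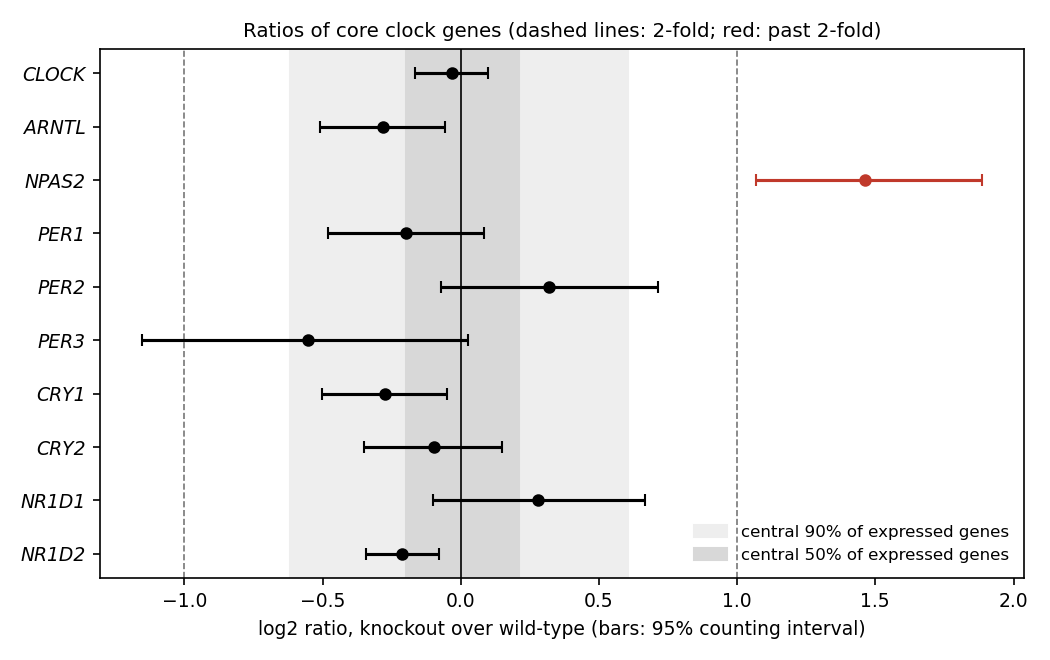
Log2 ratio, knockout over wild-type, of each core clock gene (points) with its exact 95% counting interval (bars), over the range of the central 50% and 90% of all expressed genes (grey). NPAS2 at 1.46 lies past the dashed 2-fold line with its whole interval, and the 9 others lie between -0.55 and 0.32, inside the central 90%.

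As a set the members stood close to the other genes of the table. Of the 10, 7 lay below 0 and 3 above, beside 48.8% of all expressed genes below 0 and 51.2% above. Their median log2 ratio was -0.15, beside 0.0078 for all expressed genes. The mean was 0.042, of the opposite sign to the median, and without NPAS2 it was -0.12. The interval was clear of no difference for 4 members (NPAS2, ARNTL, CRY1 and NR1D2), beside 51.9% of all expressed genes. Within 1.5-fold lay 9 of the 10 members and 88.9% of all expressed genes. With 1.5-fold in place of 2-fold in the call, the members' count was still 1, NPAS2, beside 10.8% of all expressed genes (5.25% higher and 5.5% lower). With library totals in place of TMM the ratios shift by 0.073, the CLOCK ratio becomes 0.040, the intervals of ARNTL (-0.44 to 0.016) and CRY1 (-0.43 to 0.023) include no difference and that of PER2 (0.00086 to 0.79) does not. For the fine differences among these genes the choice between TMM and library totals therefore matters, and for NPAS2 (1.54 with library totals) it does not. Other scalings moved the ratios less, by -0.021 with DESeq2 size factors and -0.011 with upper-quartile scaling.

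Ratios between 2 genes of the same library are free of that scaling. Of 8 such contrasts, whose intervals were not adjusted for their number, NPAS2 against CLOCK was the largest. It uses the same NPAS2 counts as the NPAS2 ratio above, and CLOCK was nearly level, so it is not a separate result. The knockout library had 0.202 NPAS2 counts per CLOCK count and the wild-type library 0.0712, a 2.83-fold difference (exact interval 2.11 to 3.84). NPAS2 thus made up 16.8% of the summed NPAS2 and CLOCK counts in knockout cells and 6.65% in wild-type cells. ARNTL against CLOCK differed by a log2 value of -0.25 (interval -0.51 to 0.012), and ARNTL2, a paralog of ARNTL, kept the same proportion to ARNTL within counting error (1.66 counts per ARNTL count in the knockout, 1.62 in the wild-type library).

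Among the repressors and receptors, some contrasts between paralogs also had counting intervals clear of no difference. Contrasts of other gene pairs were not computed, so no background share stands beside these. Of single expressed genes, 51.9% had an interval clear of no difference. PER1 had 1.60 counts per PER2 count in the knockout and 2.28 in the wild-type library (log2 contrast -0.52, interval -1.01 to -0.030). PER3 had 0.347 counts per PER2 count in the knockout and 0.637 in the wild-type library (-0.87, interval -1.60 to -0.16). The PER2 share was thus higher in the knockout library against both of its paralogs, although with TMM scaling no PER gene alone had an interval clear of no difference. Both contrasts use the same PER2 counts, so they are not separate results. NR1D1 had 0.147 counts per NR1D2 count in the knockout and 0.104 in the wild-type library (0.49, interval 0.089 to 0.90), while CRY1 against CRY2 differed by -0.18 (interval -0.52 to 0.16). The 3 activators together had 0.744 counts per count of the 7 repressors and receptors in the knockout and 0.650 in the wild-type library (0.19, interval 0.054 to 0.33). Without NPAS2, a choice made after seeing the data, that contrast was 0.060 (interval -0.084 to 0.20).

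**Figure D3:**
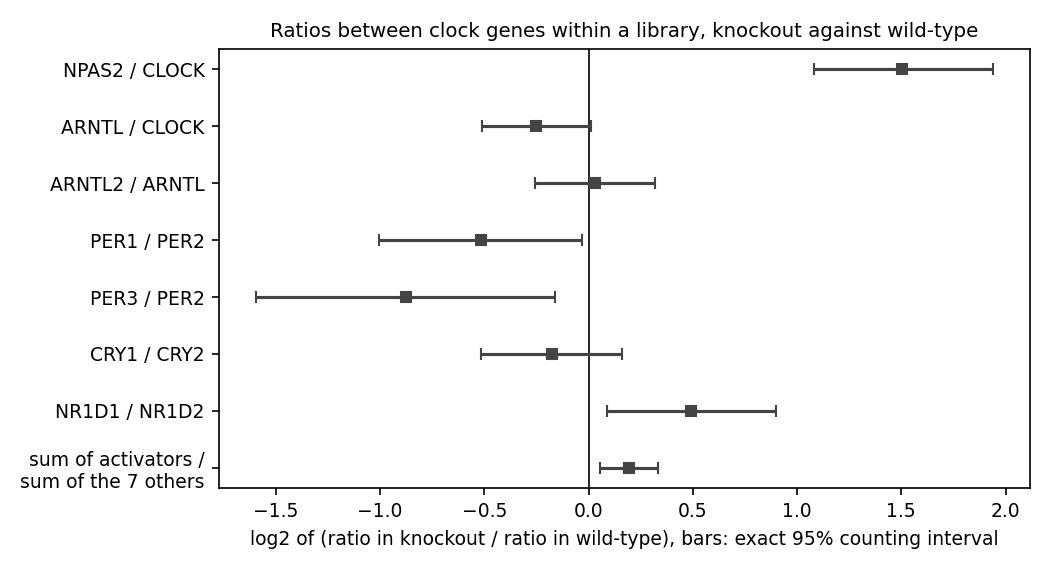
Change in the ratio between 2 clock genes of the same library, as the log2 of the knockout ratio over the wild-type ratio, with exact 95% counting intervals. NPAS2 against CLOCK stands farthest to the right, a 2.83-fold difference, with NR1D1 against NR1D2 at 0.49, and PER1 and PER3 against PER2 at -0.52 and -0.87.

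Levels of different genes were compared per length, as CPM per kilobase of summed exons. NR1D2 was the highest clock transcript by this measure, at 4.60 in the knockout and 5.33 in the wild-type library, followed by CLOCK at 2.46 and 2.52 and CRY1 at 1.81 and 2.19 in knockout and wild-type cells. In the knockout library NR1D1 (1.42), ARNTL (1.34) and CRY2 (1.28) came next, followed by PER1 (0.862), PER2 (0.550), NPAS2 (0.468) and PER3 (0.162). Neighbours in that order from CRY1 to CRY2, and PER2 and NPAS2, had overlapping counting intervals. In the wild-type library the order after CRY1 was ARNTL (1.63), CRY2 (1.37), NR1D1 (1.17), PER1 (0.989), PER2 (0.441), PER3 (0.239) and NPAS2 (0.169). There the intervals of CLOCK and CRY1, of neighbours from ARNTL to PER1, and of PER3 and NPAS2 overlapped. NPAS2 was thus last of the 10 in the wild-type library and ahead of PER3 in the knockout library, with PER3 and NPAS2 apart beyond counting error there. Several ranks depend on the length used, but these places of NPAS2 against PER3 were the same with the longest transcript.

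The rest of the pathway was described with 38 further genes in lists by role. Of these, 31 were expressed and 0 were called in either direction, beside the 2.92% of all expressed genes, and their median log2 ratio was 0.031. The interval was clear of no difference for 20 of the 31, beside the 51.9% of all expressed genes.

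Transcription factors of the loop came first. Of the ROR receptors, which oppose the REV-ERBs at the ARNTL promoter, RORA and RORB had 0 counts in both libraries, which allows up to 0.0938 CPM in the knockout and 0.0892 CPM in the wild-type library. BHLHE40 (DEC1), an E-box repressor, had 252 counts in the knockout and 350 in the wild-type library (-0.40, interval -0.64 to -0.16), and ARNTL2 had 480 against 601 (-0.25, interval -0.43 to -0.075). Among the PAR bZIP outputs and their antagonist NFIL3, DBP, a direct E-box target, had 295 against 401 counts (-0.37, interval -0.59 to -0.15), while TEF (0.031) and NFIL3 (-0.020) had intervals that include no difference. HLF was below the expression limit, with 6 counts in the knockout and 31 in the wild-type library (-2.21, interval -3.85 to -1.01). CIART, an E-box target whose protein represses the pair, had 0 and 2 counts in knockout and wild-type cells.

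Among proteins that modify or accompany the clock complexes, none differed 2-fold, and CREBBP and TIMELESS lay farthest from 0. Among 7 expressed repressor cofactors, TIMELESS, better known for replication fork protection, had 2530 counts in the knockout and 1837 in the wild-type library (0.54, interval 0.45 to 0.62), and the RNA-binding PER partner SFPQ had 5615 against 4718 (0.32, interval 0.27 to 0.38). TIPIN, the partner of TIMELESS at the fork, had the opposite sign, with 363 against 456 counts (-0.26, interval -0.46 to -0.053). Of the 7 kinases, those farthest from 0 were CSNK2A1 (-0.23, interval -0.30 to -0.17), a catalytic subunit of casein kinase 2, and GSK3B (0.19, interval 0.038 to 0.34), which phosphorylates several clock proteins. CSNK1D and CSNK1E, the casein kinases that time PER turnover, lay at -0.071 (interval -0.21 to 0.065) and -0.061 (interval -0.16 to 0.040). In the ubiquitin pathway, FBXW7 (0.24, interval 0.078 to 0.40) and USP2 (0.23, interval -0.39 to 0.86) were farthest from 0. CREBBP, a histone acetyltransferase that is a coactivator of both CREB1 and the clock, was the farthest of the 31 from 0, with 497 counts in the knockout and 299 in the wild-type library (0.81, interval 0.60 to 1.02), or 1.75-fold higher, and 5.09% of expressed genes had a ratio as far from 0. Its interval reaches just past 2-fold. EP300, its paralog, had 520 against 423 (0.37, interval 0.18 to 0.56). Of the clock-controlled cell cycle genes, CDKN1A had a log2 ratio of -0.28 (interval -0.34 to -0.22) and CCND1 of -0.11 (interval -0.15 to -0.066), and WEE1, whose promoter is a textbook E-box target, lay at 0.063 (interval -0.059 to 0.18).

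**Figure D4:**
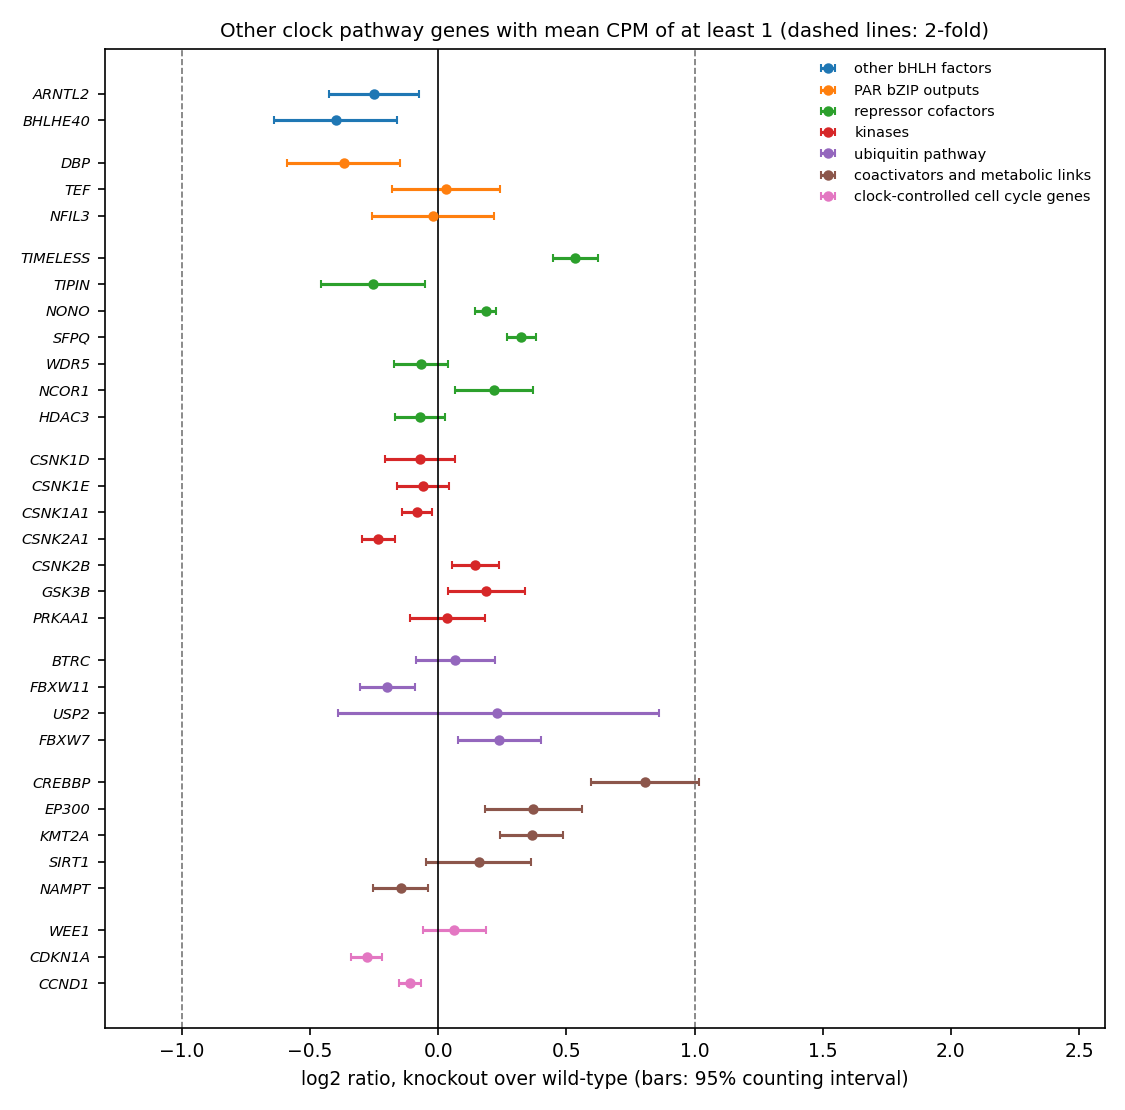
Log2 ratio, knockout over wild-type, of the 31 expressed genes in the lists of other clock pathway genes, with 95% counting intervals and colours by list. All points lie inside the dashed 2-fold lines, from -0.40 for BHLHE40 to 0.81 for CREBBP.

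The genes beside the members on the chromosomes were examined next, in the gene order of GENCODE release 29. Of the 10 expressed protein-coding genes before NPAS2, the nearest 2 were called higher too and the 8 others were not called. PDCL3, a phosducin-like chaperone gene and the nearest, had 724 expected counts in the knockout and 375 in the wild-type library (log2 ratio 1.02, interval 0.84 to 1.21). LONRF2, a RING finger gene and the next expressed gene outward, had 487 counts in the knockout and 139 in the wild-type library, 3.68-fold higher (1.88, interval 1.61 to 2.16). The expected counts of PDCL3 were not whole numbers, so its share of reads that fit several genes is uncertain. On the other side of NPAS2, RPL31 (-0.22, interval -0.25 to -0.19) and TBC1D8 (0.32, interval 0.20 to 0.44) were not called. NPAS2 was thus the last of 3 consecutive expressed genes that were called higher in the knockout library. The next genes outward, REV1 (0.20, interval 0.032 to 0.36) and EIF5B (0.38, interval 0.24 to 0.52), were less than 1.5-fold higher, with intervals above no difference. An interval clear of no difference was found for 51.9% of all expressed genes, and RPL31 and TBC1D8 on the other side had one too. The median log2 ratio was 0.25 over the 10 genes before NPAS2 and -0.0031 over the 10 after it.

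Windows of 10 expressed protein-coding genes on each side of every member, a choice made after these values were seen, were then counted. Around NPAS2, 2 of 20 genes were called higher, the 2 just named, and 1 lower, SLC9A2 (40 counts in the knockout and 108 in the wild-type library, log2 ratio -1.35). Around the 9 other members, 0 of 180 genes were called higher and 4 (2.22%) lower, beside 1.28% higher and 1.64% lower over all expressed genes, so the lower calls were near the background share. The medians of the windows lay between -0.10 and 0.17. Of those 4, 2 lie near CRY2. SYT13, a synaptotagmin gene, had 28 counts in the knockout and 121 in the wild-type library (-2.02, interval -2.69 to -1.44). MAPK8IP1, a JNK scaffold gene, had 84 against 387 (-2.12, interval -2.49 to -1.79). MAPK8IP1 is the next expressed protein-coding gene after CRY2. SYT13 comes before CRY2, with 1 expressed protein-coding gene that was not called between them. CRY2 itself lay at -0.098. THRB, a thyroid hormone receptor gene and the nearest expressed neighbour after NR1D2, had 10 counts in the knockout and 62 in the wild-type library, 5.66-fold lower (-2.50, interval -3.69 to -1.58), while NR1D2 was 1.16-fold lower. The last was ALKBH2, at the edge of the window of CRY1, with 345 against 881 counts (-1.28, interval -1.46 to -1.10). Among the kinases, CSNK1D at -0.071 lies between SLC16A3, a lactate transporter gene with 5911 counts in the knockout and 12434 in the wild-type library (-0.999, interval -1.04 to -0.95), and SECTM1 (0.033). The next genes outward were CCDC57 (-0.54, interval -0.65 to -0.42) and TEX19, which was called lower (47 against 101 counts, -1.02, interval -1.56 to -0.52). CSNK1D, not called itself, was the only gene of the other pathway lists whose neighbours were examined. No window was counted around it, so these values do not describe the region.

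**Figure D5:**
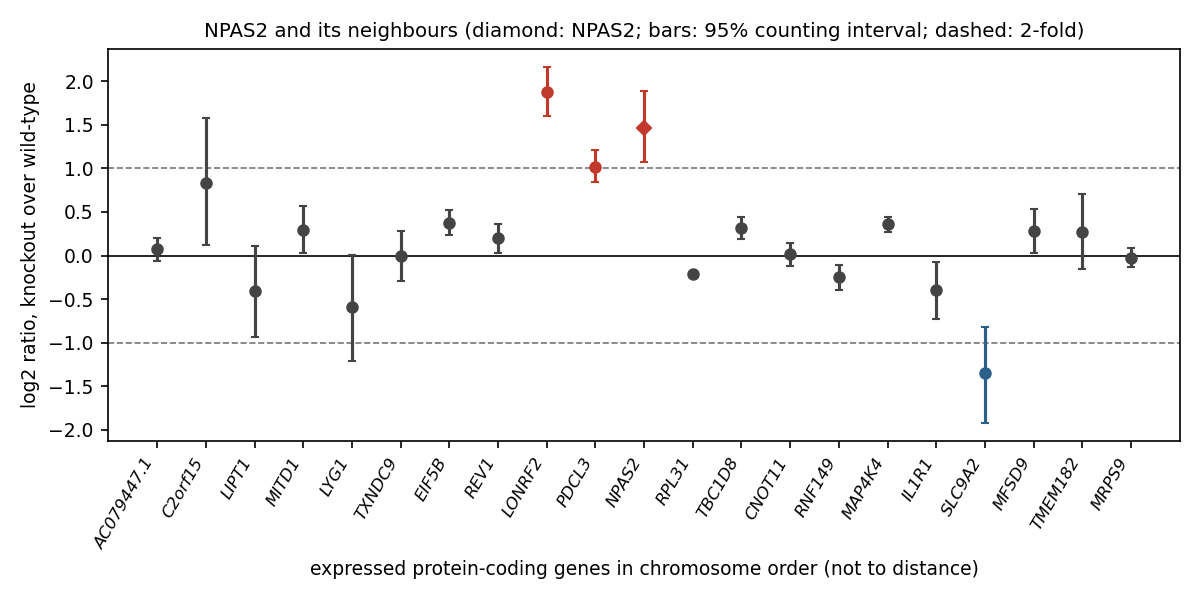
Log2 ratio, knockout over wild-type, of NPAS2 (diamond) and the 10 expressed protein-coding genes on each side of it in chromosome order, with 95% counting intervals. LONRF2 (1.88), PDCL3 (1.02) and NPAS2 (1.46) stand above the dashed 2-fold line side by side, SLC9A2 (-1.35) stands below it, and the other genes lie between the lines.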

How the data were processed

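The authors deposited expected counts (RSEM's estimates of reads per gene), not scaled between libraries. The tools named in the submitters' processing notes are RSEM 1.2.26, STAR 2.4.2a and cutadapt 2.0, with build hg19. No source used here states the annotation release or strand setting. Identifiers were matched without version to GENCODE release 29 (GRCh38), and 52338 of 57820 (90.5%) matched. The unmatched held 35.2% of knockout and 37.0% of wild-type counts and stayed in the totals. RefSeq lists ARNTL as BMAL1.

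Expected counts were rounded and scaled by TMM in edgeR 4.0.16 (R 4.3.3), with log2 ratios at a prior count of 0.5. Intervals are Clopper-Pearson 95% intervals of the ratio, Poisson intervals of single levels and conditional exact intervals of contrasts. They treat read pairs as independent molecules and cover counting error only, as does the limit of 3 counts behind a count of 0. The calling rule was tested on simulated data with Poisson counting error alone. That is the error the intervals assume, so the simulation cannot show how the rule fares with variation between clones or cultures. Alternatives were other scalings (DESeq2 1.42.0 among them), filters, folds, prior counts and lengths. The members, lists and rules were chosen with earlier results of these data known. All members were named, with any called gene and otherwise the 2 farthest from 0 in each other list, genes beside NPAS2 and CSNK1D, and THRA. Genes named outside that rule were chosen after their values were seen, among them TIPIN, NFIL3, CSNK1E, HLF and WEE1. Some genes of the lists are not reported here.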

Additional observations from a re-analysis of the deposited data

How the results depend on the processing

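No paired analysis was possible because each genotype has 1 library, so none could be left out either. The log2 ratios of the 10 members were recomputed under 7 alternatives, and all 70 values stayed inside the counting interval of the main value. A scaling moves every gene by nearly the same amount, 0.073 with library totals, which is small beside these intervals. That outcome was therefore close to fixed in advance. Whether the interval includes no difference did change for ARNTL, CRY1 and PER2 with library totals. CLOCK, whose interval includes no difference, was the 1 value that changed sign (0.040 with library totals). NPAS2 was the called member throughout except with a minimum mean CPM of 5, which it does not reach, and there 0 of the 6 members left were called. Of the other pathway genes, 1 of 35 was called without an expression filter (HLF) and 1 of 31 at 1.5-fold (CREBBP). Over the whole table, 376 of 12886 expressed genes were called, and 1386 of the same 12886 at 1.5-fold. Without a filter 1086 of 23251 identifiers were called, and with the minimum mean CPM of 5 it was 137 of 10010. With library totals 201 were higher and 167 lower, so 54.6% of calls were higher, against 43.9% with TMM (165 and 211). That share was 40.9% with DESeq2 size factors and 42.6% with upper-quartile scaling, both nearer to the TMM share. With the longest transcript in place of summed exons, 5 members in the knockout and 6 in the wild-type library kept their rank in level per length. Depth limits the scarce members most: the interval of PER3 spans 1.18 on the log2 scale and that of CLOCK 0.261.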
